A study of Mus musculus with 6 samples.

Results

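The BCL2 family of apoptosis regulators was examined in the bone marrow of *MxCDX2* mice through 10 listed genes, which were picked by symbol. They comprise the antiapoptotic genes *Bcl2*, *Bcl2l1* and *Mcl1*, the effector genes *Bax* and *Bak1*, and the BH3-only genes *Bcl2l11*, *Bbc3*, *Pmaip1*, *Bid* and *Bad*. All 10 were matched to an identifier among the 39179 genes of the files, and all 10 passed the filter on low counts, which kept 15980 genes for testing. The 3 *MxCDX2* mice carried both *RsCDX2*, the human *CDX2* coding sequence knocked in at *Rosa26* behind a stop sequence that Cre removes, and *Mx1Cre*, in which the interferon-inducible *Mx1* promoter drives Cre. The 3 control mice were littermates of different genotypes, 1 *RsCDX2* (control 1), 1 *Mx1Cre* (control 2) and 1 wild type (control 3), so that no control genotype was replicated. Every mouse, controls included, was 3 months old when poly(I:C), which switches on the *Mx1* promoter, was given into the peritoneum in 3 doses of 10 µg per g, and whole, unsorted bone marrow RNA was sequenced 6 weeks later.

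The files held between 38646101 and 49899650 reads on genes per mouse. Reads on *Cdx2* numbered 4, 0 and 0 in control mice 1, 2 and 3, against 152, 155 and 183 in *MxCDX2* mice 1, 2 and 3. They were counted on the mouse gene, while the knocked-in coding sequence is human, so they do not give its level. The marrow itself differed between the groups. All 8 erythroid markers fell and 5 of 6 monocyte markers rose (adjusted p-value below 0.05, edgeR's quasi-likelihood test), and the wild-type control stood apart from the other controls, with a summed level of 4 megakaryocyte markers of 2289 RPKM (reads per kilobase of annotated exon, scaled to library depth) against 256 and 199.9.

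Proteins of the BCL2 family decide whether the outer mitochondrial membrane stays intact. The effectors BAX and BAK open it and release cytochrome c, the antiapoptotic proteins BCL2, BCL-XL (encoded by *Bcl2l1*) and MCL1 hold them in check, and the BH3-only proteins, which sense damage, growth factor loss or death receptor signals, oppose the antiapoptotic proteins or activate the effectors directly. In the marrow BCL-XL is known as a survival factor of maturing erythroblasts and platelets, MCL1 of stem cells and myeloid cells, and BCL2 of lymphocytes.

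Of the 10 genes, 4 changed in *MxCDX2* mice at an adjusted p-value below 0.05, where 21.7% of all tested genes did. *Bcl2l1* fell, alone among the 10, while *Bid*, *Pmaip1* and *Bax* rose. Falls past the test made up 11.8% of all tested genes and rises 9.91%. When a log2 fold change beyond 1 in size was also required, as in the methods, only *Bcl2l1* passed, against 13.6% of all tested genes (4.59% higher and 9.03% lower). For 6 genes the groups did not overlap, which were the 4 named and *Bak1* and *Bad*, compared with 42.1% of all tested genes. The median log2 fold change was 0.41 over the 10 genes and 0.00 over all tested genes. Bulk RNA cannot tell fewer cells of a type from less RNA per cell, and this holds for every value below. With 3 mice a group the smallest two-sided p that an exact permutation test allows is 0.10, which every gene without overlap had.

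**Figure D1:**
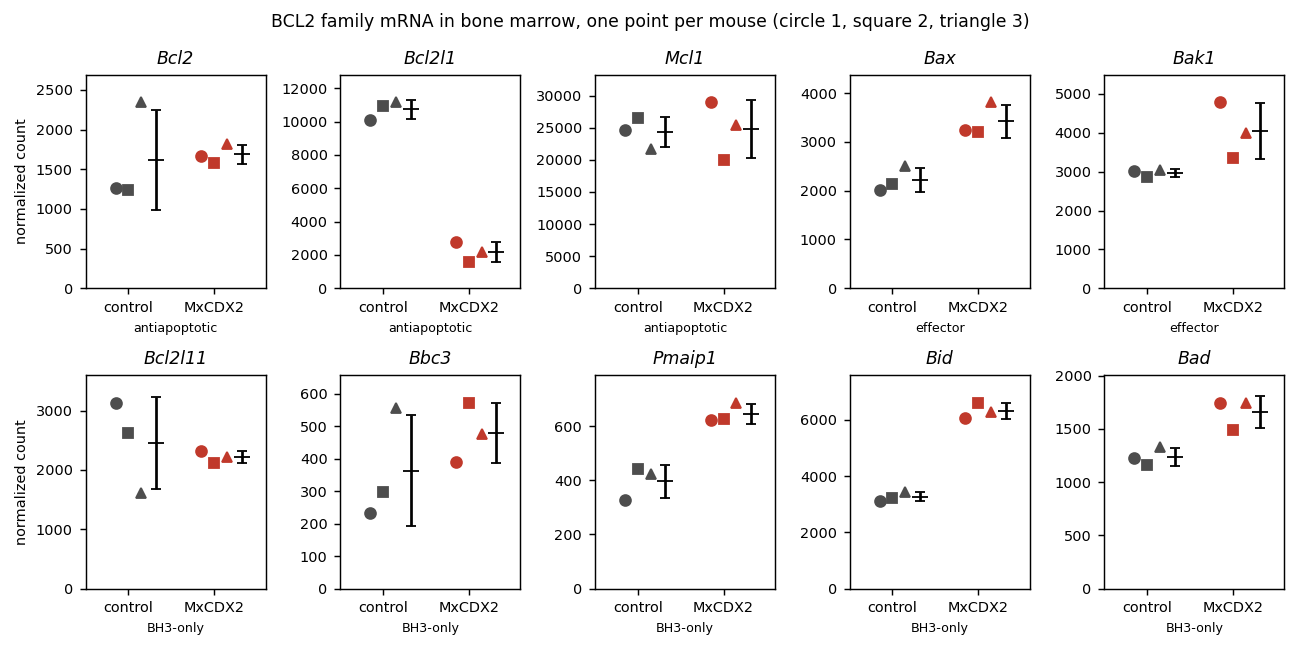
Normalized counts (y axis, from 0, reads scaled to the average effective library size) of the 10 BCL2 family genes in the 3 control mice (grey) and the 3 *MxCDX2* mice (red), 1 point per mouse, with the mean and SD beside them. *Bcl2l1* lay between 10094 and 11145 in controls, against between 1602 and 2773 in *MxCDX2* mice, and *Bid* between 3122 and 3439 and between 6071 and 6614.

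Among the antiapoptotic genes, only *Bcl2l1* changed, and it was the gene of the 10 with the largest change in either direction. *Bcl2l1* (ENSMUSG00000007659) lies at chr2:152780668-152831728 on the minus strand of GRCm38. Its normalized counts, which are reads scaled to the average effective library size after TMM, were 10094, 10952 and 11145 in control mice 1, 2 and 3. They were 2773, 1602 and 2184 in *MxCDX2* mice 1, 2 and 3. Every *MxCDX2* mouse was thus far below every control mouse. This gave 10731 ± 560 (SD, n = 3) for controls and 2186 ± 586 (SD, n = 3) for *MxCDX2* mice, which is a 4.91-fold fall and a log2 fold change of -2.30 (standard error, SE, 0.20, edgeR adjusted p = 0.00166). By p-value *Bcl2l1* was 127th of the 15980 tested genes, and it passed in all 13 alternative analyses, with log2 fold changes between -2.50 and -2.11. *Bcl2l1* gives rise to a long, antiapoptotic and a short, proapoptotic protein by splicing, which counts per gene do not tell apart.

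The fall of *Bcl2l1* went together with that of the erythroid markers. The summed level of the 8 erythroid markers, in RPKM, was between 36113 and 45768 in control mice and was 3911, 1098 and 2113 in *MxCDX2* mice 1, 2 and 3. *MxCDX2* mouse 1 was the highest and mouse 2 the lowest of its group both in this sum and in *Bcl2l1*. This order was not particular to them, since the sums of the B-cell and T-cell markers, *Mcl1* and *Bak1* had it too. Among control mice the sum was highest in mouse 2 and *Bcl2l1* in mouse 3. The part of the erythroid markers in the fall of *Bcl2l1* was not tested. No erythroid marker was at 0 in any mouse, and *Hbb-bs* and *Hba-a1*, the β- and α-globin genes, had the highest counts among them.

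Because CDX2 is a transcription factor and *Bcl2l1* and *Bid* had the smallest p-values of the 10 genes, the DNA before their outermost annotated starts is shown, in 5′ to 3′ direction on the minus strand, from RefSeq (GRCm38.p6). Windows of 250 bases before the start were read for 9 of the 10 genes, 15 windows in all, and searched on both strands for TTTAT, the core of CDX sites, GATAA, the core of GATA sites, and GGGCGG, a GC box. In the *Bcl2l1* sequence (chr2:152831729-152831978) capitals mark the reverse complement of TTTAT, between 96 and 92 bases before the start, and in the *Bid* sequence (chr6:120916854-120917074, bases outside the annotated gene only) they mark GGGCGG.
Bcl2l1: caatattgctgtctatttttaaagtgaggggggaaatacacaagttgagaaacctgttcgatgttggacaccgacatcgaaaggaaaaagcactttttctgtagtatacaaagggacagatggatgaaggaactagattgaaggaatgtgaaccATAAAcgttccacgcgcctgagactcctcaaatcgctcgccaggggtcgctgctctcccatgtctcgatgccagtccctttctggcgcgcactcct
Bid: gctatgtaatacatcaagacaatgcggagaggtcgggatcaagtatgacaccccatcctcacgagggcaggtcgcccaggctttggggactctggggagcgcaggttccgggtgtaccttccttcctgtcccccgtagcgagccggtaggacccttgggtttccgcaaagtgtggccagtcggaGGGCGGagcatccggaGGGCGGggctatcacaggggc

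*Bcl2l1* was the only one of the 9 genes with TTTAT. These letters were in 2 of the 15 windows and in 37.3% of all 32851 windows. *Bcl2l1* was also the only one with GATAA, in 1 of the 15 windows, against 22.6% of all windows. This was an inner window, where the letters overlap a second match to TTTAT. The GC box was present for 7 of the 9 genes, *Bid* and *Bax* among them but neither *Bcl2l1* nor *Bak1*. By window, it was in 10 of the 15 and in 32.7% of all windows. These are matches of letters, and binding was not measured here.

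*Mcl1* (ENSMUSG00000038612, chr3:95658788-95663176, plus strand), which encodes a short-lived protein controlled largely by its turnover, had the highest level per length of the 10 genes in both groups. Its normalized counts were 24722, 26548 and 21768 in control mice 1, 2 and 3, against 28955, 19934 and 25392 in *MxCDX2* mice 1, 2 and 3. The *MxCDX2* mice were the highest and the lowest of the 6, and the groups overlapped. Its log2 fold change was 0.02 (95% confidence interval -0.39 to 0.44, adjusted p = 0.937).

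*Bcl2* (ENSMUSG00000057329, chr1:106538178-106714274, minus strand), the founding member of the family, had normalized counts of 1268, 1244 and 2342 in control mice 1, 2 and 3, against 1661, 1575 and 1822 in *MxCDX2* mice 1, 2 and 3. The wild-type control was the highest of the 6 mice and the other controls were the lowest, with the *MxCDX2* mice between them. The log2 fold change was 0.06 (95% confidence interval -0.56 to 0.68, adjusted p = 0.897). Without the wild-type mouse it was 0.44 (edgeR adjusted p = 0.0344). This was the only 1 of the 13 alternative analyses in which *Bcl2* passed, so that call depends on leaving out 1 library. *Bcl2* shares 558 bases of exon with *D630008O14Rik* on the opposite strand.

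Both effector genes were higher in every *MxCDX2* mouse than in every control mouse, and *Bax* passed the test. *Bax* (ENSMUSG00000003873), at chr7:45461697-45466898 on the minus strand of GRCm38, is a p53 target whose protein moves from the cytosol to mitochondria on activation. It had normalized counts of 2016, 2145 and 2497 in control mice 1, 2 and 3, against 3239, 3204 and 3808 in *MxCDX2* mice 1, 2 and 3. This gave 2219 ± 249 (SD, n = 3) for controls and 3417 ± 339 (SD, n = 3) for *MxCDX2* mice, a 1.54-fold rise (log2 fold change 0.62, SE 0.13, edgeR adjusted p = 0.0167). It passed in 4 of the 6 fits with 1 mouse omitted, and without control 2 or *MxCDX2* mouse 3 the adjusted p was 0.0537 and 0.0742.

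*Bak1* (ENSMUSG00000057789, chr17:27019810-27029009, minus strand), whose protein resides in the mitochondrial membrane, had normalized counts of 3017, 2859 and 3041 in control mice 1, 2 and 3. The *MxCDX2* mice had 4783, 3341 and 3987. The controls were close together and the *MxCDX2* mice spread over a wider range above them. The log2 fold change was 0.44 (SE 0.14, 95% confidence interval 0.10 to 0.78, adjusted p = 0.0701), which did not pass. Without *MxCDX2* mouse 2, the lowest of its group, it was 0.57 (adjusted p = 0.0404). *Bak1* shares 614 bases of exon with *Ggnbp1* on the opposite strand, and *Bax* 192 bases with *Gm45808* on its own.

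Of the 5 BH3-only genes, *Bid* and *Pmaip1* rose, and *Bad*, *Bbc3* and *Bcl2l11* did not pass. *Bid* (ENSMUSG00000004446) encodes the protein that caspase-8 cleaves to carry death receptor signals to mitochondria, and lies at chr6:120891930-120916853 on the minus strand of GRCm38. Its normalized counts were 3122, 3238 and 3439 in control mice 1, 2 and 3, against 6071, 6614 and 6281 in *MxCDX2* mice 1, 2 and 3. Both groups were tight and lay far apart. This gave 3266 ± 160.4 (SD, n = 3) for controls and 6322 ± 274 (SD, n = 3) for *MxCDX2* mice, a 1.94-fold rise (log2 fold change 0.95, SE 0.09, edgeR adjusted p = 0.00191). *Bid* passed in all 13 alternatives, with log2 fold changes between 0.92 and 1.07. It shares 628 bases of exon with *Bcl2l13* on the opposite strand, which had a log2 fold change of -0.37 (adjusted p = 0.148).

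*Pmaip1* (ENSMUSG00000024521), which encodes NOXA, a p53-induced protein that binds MCL1, had normalized counts of 327, 441 and 423 in control mice 1, 2 and 3. *MxCDX2* mice 1, 2 and 3 had 622, 627 and 687. The groups did not overlap. The log2 fold change was 0.70 (SE 0.18, edgeR adjusted p = 0.0355), a 1.62-fold rise. The call was less stable than that of *Bid*, since it held in only 1 of the 6 fits with 1 mouse omitted, the one without the wild-type control. In the other 5 the log2 fold change was between 0.59 and 0.78 and the adjusted p between 0.0594 and 0.132.

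*Bad* (ENSMUSG00000024959, chr19:6941861-6951899, plus strand), whose protein is silenced by growth factor signaling through phosphorylation, had 1228, 1157 and 1328 normalized counts in control mice 1, 2 and 3, against 1746, 1486 and 1743 in *MxCDX2* mice 1, 2 and 3. All *MxCDX2* mice were above all controls, but the log2 fold change of 0.42 (SE 0.12, 95% confidence interval 0.13 to 0.72) had an adjusted p of 0.0525 in edgeR and of 0.0312 in DESeq2. Without the wild-type control the adjusted p in edgeR was 0.0306. *Bad* shares 524 bases of exon with *Gpr137* on the opposite strand.

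*Bbc3* (ENSMUSG00000002083, chr7:16308393-16318205, plus strand), which encodes PUMA, a p53 target that binds all antiapoptotic members, had 234, 299 and 557 normalized counts in control mice 1, 2 and 3, against 390, 573 and 475 in *MxCDX2* mice 1, 2 and 3. The wild-type control lay within the range of the *MxCDX2* mice and the other controls below it. Its log2 fold change was 0.40 (95% confidence interval -0.44 to 1.24, adjusted p = 0.468).

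*Bcl2l11* (ENSMUSG00000027381, chr2:128126038-128162547, plus strand), which encodes BIM, a sensor of cytokine withdrawal, had 3132, 2618 and 1608 normalized counts in control mice 1, 2 and 3, against 2315, 2111 and 2219 in *MxCDX2* mice 1, 2 and 3. Here the wild-type control was the lowest of the 6 and the *MxCDX2* mice lay between the controls. The log2 fold change was -0.15 (95% confidence interval -0.70 to 0.41, adjusted p = 0.696). The wild-type mouse was at one end of the control range for every listed gene except *Pmaip1*. *Bcl2*, *Bbc3* and *Bcl2l11* were the 3 genes of the 10 with the largest control SD relative to the mean.

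**Figure D2:**
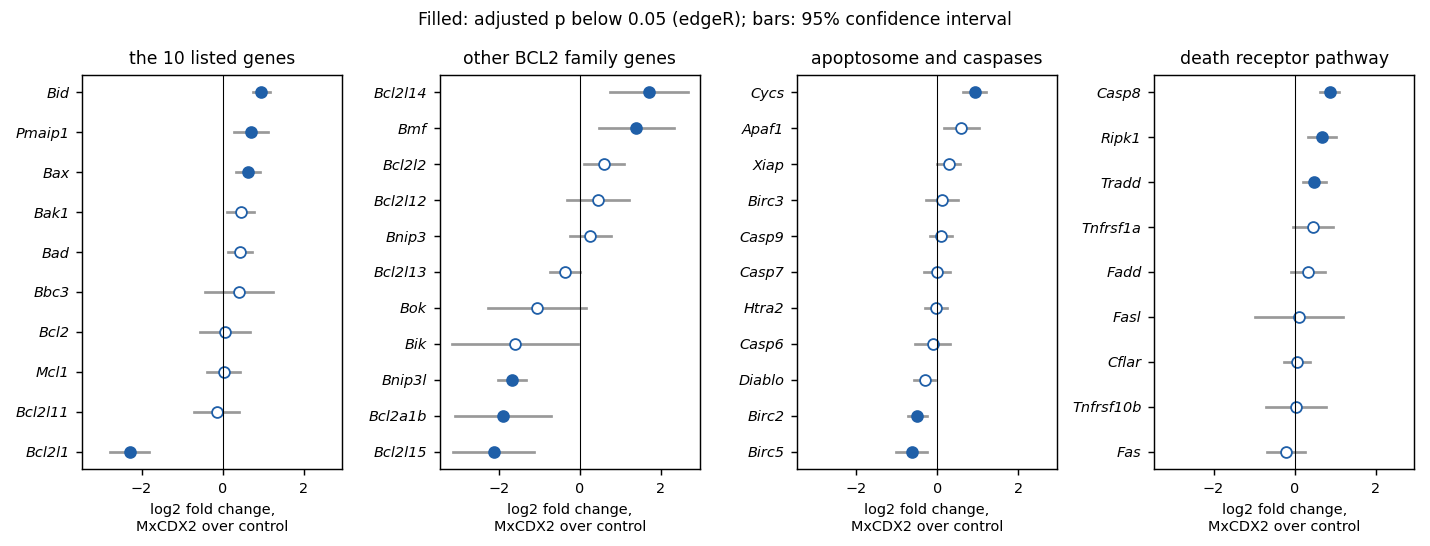
Log2 fold change (x axis, *MxCDX2* over control) of the 10 listed genes and of the reported tested genes of 3 further lists, with the 95% confidence interval as a bar and filled points for an adjusted p-value below 0.05 (edgeR). Among the 10 genes the filled points are *Bcl2l1* at -2.30 and *Bax*, *Pmaip1* and *Bid* at 0.62, 0.70 and 0.95.

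Levels can be compared between genes only per length, here as RPKM. In control mice *Mcl1* was highest at 157 ± 15.5 (SD, n = 3), followed by *Bcl2l1* at 51.5 ± 2.68, *Bax* at 31.0 ± 3.47, *Bak1* at 27.2 ± 0.91, *Bid* at 20.2 ± 0.99 and *Bad* at 10.6 ± 0.74. None of these neighbours overlapped between mice. *Bcl2l11* (6.72 ± 2.12), *Bcl2* (3.89 ± 1.51), *Bbc3* (3.76 ± 1.77) and *Pmaip1* (3.20 ± 0.49) formed the low end, where each overlapped the next.

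In *MxCDX2* mice *Mcl1* stayed first at 159 ± 29.2 (SD, n = 3), and *Bcl2l1* moved from the second to the sixth place at 10.5 ± 2.81. *Bax* was second at 47.7 ± 4.73. *Bid* (39.2 ± 1.70) and *Bak1* (36.9 ± 6.60) followed and overlapped, and *Bad* (14.3 ± 1.28) overlapped with *Bcl2l1*. The low end held *Bcl2l11* (6.07 ± 0.28), *Pmaip1* (5.19 ± 0.29), *Bbc3* (4.96 ± 0.95) and *Bcl2* (4.05 ± 0.30). With the longest transcript in place of all exons as length, *Bcl2l1* held the same places, second and sixth, and *Bid* and *Bak1* changed places in control mice.

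**Figure D3:**
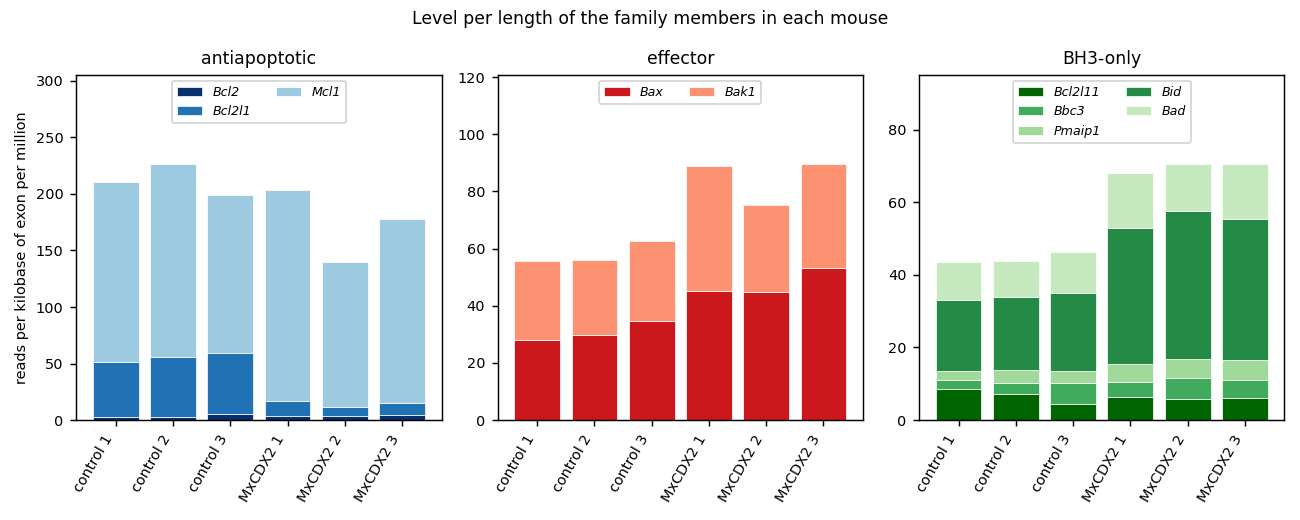
Level per length (y axis, from 0, RPKM) of the antiapoptotic, effector and BH3-only genes, stacked by gene, in each of the 6 mice. *Bcl2l1* is a wide band in the 3 control mice (48.4 to 53.4) and a narrow one in the 3 *MxCDX2* mice (7.68 to 13.3), and *Bid* is the widest band of the BH3-only genes in every mouse.

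Within each mouse the ratio of 2 genes does not depend on the scaling between libraries. The ratio of *Mcl1* to *Bcl2l1* per length was 3.29, 3.25 and 2.62 in control mice 1, 2 and 3, against 14.0, 16.7 and 15.6 in *MxCDX2* mice 1, 2 and 3. With the longest transcript as length, the mean ratio was 1.71 in control mice and 8.64 in *MxCDX2* mice. Messages for antiapoptotic proteins were therefore divided differently. *Mcl1* made up 73.8% ± 2.99 (SD, n = 3) of the summed level of the 3 antiapoptotic genes in controls, against 91.7% ± 0.14 (SD, n = 3) in *MxCDX2* mice, and *Bcl2l1* 24.4% ± 2.16 and 5.97% ± 0.52. These shares are for all exons as length, and their size depends on the length used.

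The ratio of *Bid* to *Bcl2l1* was 0.40, 0.38 and 0.40 in control mice and 2.83, 5.33 and 3.71 in *MxCDX2* mice. In every control mouse *Bcl2l1* exceeded *Bid* per length, and in every *MxCDX2* mouse *Bid* exceeded *Bcl2l1*. The ratio of *Bax* to *Bcl2l1* turned in the same way, from between 0.57 and 0.65 to between 3.40 and 5.82.

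By class, the summed level of the antiapoptotic genes was 212 ± 13.7 (SD, n = 3) in controls, against 174 ± 32.2 (SD, n = 3) in *MxCDX2* mice, and *MxCDX2* mouse 1 (204) lay above the wild-type control (199). This overlap depended on the length used, since with the longest transcript the sums were between 243 and 268 in controls, against between 147 and 215 in *MxCDX2* mice, and the log2 ratio was -0.47 in place of -0.29. The 2 effector genes summed to 58.1 ± 3.91 and 84.6 ± 8.09, and the 5 BH3-only genes to 44.6 ± 1.52 and 69.6 ± 1.42, in both cases with no overlap between the groups. Within the BH3-only sum *Bid* alone was at 20.2 and 39.2, while *Bad*, *Bbc3* and *Bcl2l11* did not pass the test. The sum of the effectors divided by that of the antiapoptotic genes was between 0.25 and 0.31 in controls, against between 0.44 and 0.54 in *MxCDX2* mice. For the BH3-only genes this ratio was between 0.19 and 0.23 and between 0.33 and 0.50. These sums weigh each gene by its message and not by its protein.

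Of 15 further genes of the family, 13 were found in the files and 11 were tested. Of these, *Bmf* and *Bcl2l14* rose, *Bnip3l*, *Bcl2l15* and *Bcl2a1b* fell, and 6 did not pass, where 21.7% of all tested genes passed. *Bnip3l*, whose protein NIX removes mitochondria from maturing red cells, had by far the most reads of the 5, with 19305, 15377 and 16367 normalized counts in control mice 1, 2 and 3, against 5867, 4628 and 5480 in *MxCDX2* mice 1, 2 and 3. It fell with *Bcl2l1*, with a log2 fold change of -1.68 (SE 0.14, edgeR adjusted p = 0.00159), and passed in all 6 fits with 1 mouse omitted. The erythroid markers moved with it too, and their part was not tested.

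*Bmf*, a BH3-only gene whose protein responds to loss of attachment and is held at the cytoskeleton, was named after its values were seen, as the last of the 5. It had 1579, 1928 and 769 normalized counts in control mice 1, 2 and 3, against 2387, 4501 and 4342 in *MxCDX2* mice 1, 2 and 3, and the groups did not overlap. Its log2 fold change was 1.39 (SE 0.38, adjusted p = 0.0445), and it passed in 3 of the 6 fits with 1 mouse omitted.

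The other 3 genes had low counts. *Bcl2l14* had at most 41.9 normalized counts in a control mouse and at least 78.4 in an *MxCDX2* mouse (log2 fold change 1.70, adjusted p = 0.0278), and *Bcl2l15* at least 73.8 and at most 31.8 (log2 fold change -2.13, adjusted p = 0.0155). *Bcl2a1b*, one of a set of near-identical antiapoptotic genes, had a log2 fold change of -1.90 (adjusted p = 0.0370), but reads that fit its copies equally well may have been lost or split, so its value is uncertain. With 1 mouse left out, *Bcl2l14*, *Bcl2l15* and *Bcl2a1b* passed in 1, 4 and 1 of the 6 fits. *Bcl2l14* shares 577 bases of exon with *4933406J09Rik* on the opposite strand, so the source strand of its few reads is uncertain. *Bcl2l2*, the remaining close relative of *Bcl2l1*, had between 649 and 1036 normalized counts in controls, against between 1136 and 1232 in *MxCDX2* mice (log2 fold change 0.59, adjusted p = 0.0877). *Bcl2a1b*, *Bcl2l15* and *Bcl2l2* share 401, 569 and 594 bases of exon with *Gm29094*, *Gm43064* and *Gm20521* on their own strand.

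Downstream of the mitochondria, cytochrome c and APAF1 form the apoptosome, which activates caspases, and inhibitors of apoptosis restrain them. Of 12 genes of this step, all tested, *Cycs* rose, 3 fell, with *Birc5* and *Birc2* among them, and 8 did not pass. Over all tested genes 21.7% passed. *Cycs*, which encodes cytochrome c, had 1986, 1739 and 1748 normalized counts in control mice 1, 2 and 3, against 3681, 3068 and 3640 in *MxCDX2* mice 1, 2 and 3. Its log2 fold change was 0.92 (SE 0.12, edgeR adjusted p = 0.00371). *Cycs* passed in all 6 fits with 1 mouse omitted.

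*Birc5*, which encodes survivin, a protein of dividing cells, had a log2 fold change of -0.63 (adjusted p = 0.0356), and *Birc2*, which encodes the ubiquitin ligase cIAP1, of -0.49 (adjusted p = 0.0152). They passed in 2 and 4 of the 6 fits with 1 mouse omitted. *Apaf1* was higher in every *MxCDX2* mouse than in every control mouse, with a log2 fold change of 0.59, but did not pass (adjusted p = 0.0608).

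In the death receptor pathway, which joins the mitochondrial one through *Bid*, 3 of 9 tested genes rose and none fell. Over all tested genes 9.91% rose past the test and 11.8% fell. *Casp8*, the protease that cleaves BID, rose together with *Bid*. It had 2938, 2500 and 2765 normalized counts in control mice 1, 2 and 3, against 5074, 4889 and 4936 in *MxCDX2* mice 1, 2 and 3, with tight groups far apart. Its log2 fold change was 0.86 (SE 0.10, edgeR adjusted p = 0.00272), and it passed in all 6 fits with 1 mouse omitted.

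*Ripk1* and *Tradd*, which encode a kinase and an adaptor of the TNF receptor complex, had log2 fold changes of 0.66 and 0.48 (adjusted p = 0.0209 and 0.0298), and passed in 2 and 1 of these 6 fits. Exons of *Ripk1* overlap those of *Serpinb6a* on the opposite strand. The receptor gene *Fas* and the caspase-8 inhibitor gene *Cflar* had log2 fold changes of -0.21 and 0.06 (adjusted p = 0.486 and 0.809).

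Among 8 genes that regulate the family, 1 fell and 7 did not pass, where 21.7% of all tested genes passed. *Foxo3* encodes a transcription factor known to activate *Bcl2l11* and *Bbc3*, and had a log2 fold change of -1.09 (adjusted p = 0.00412). *Trp53*, which encodes p53, the activator of *Bax*, *Bbc3* and *Pmaip1*, had a log2 fold change of 0.10 (SE 0.08, adjusted p = 0.427). Its normalized counts were between 5249 and 5522 in controls, against between 5637 and 5992 in *MxCDX2* mice, without overlap.

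**Figure D4:**
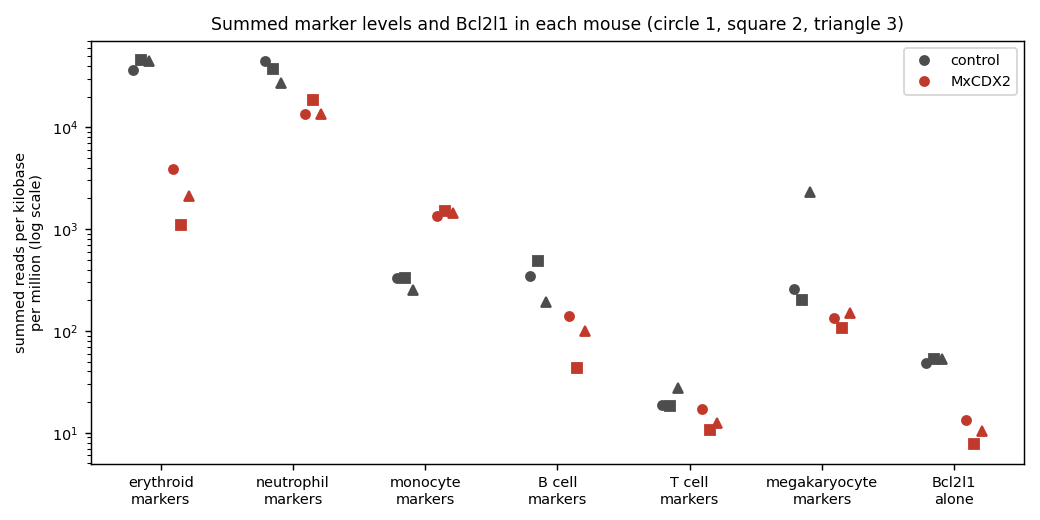
Summed level of 6 marker lists and the level of *Bcl2l1* alone (y axis, log scale, RPKM) in the 3 control mice (grey) and the 3 *MxCDX2* mice (red). Erythroid markers lay between 36113 and 45768 in controls, against between 1098 and 3911 in *MxCDX2* mice, and monocyte markers between 254 and 332 and between 1341 and 1497.

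The genes that rose did so in marrow with more monocyte message. The summed level of the 6 monocyte markers was 305 ± 44.4 (SD, n = 3) in controls, against 1424 ± 78.4 (SD, n = 3) in *MxCDX2* mice, and 5 of the 6 passed the test. Of 8 neutrophil markers 3 fell and 5 did not pass. Their summed level was between 27415 and 45044 in controls, against between 13359 and 18456 in *MxCDX2* mice. *S100a8*, *Ngp*, *Camp* and *Ltf* had the highest mean levels in this sum in both groups. The log2 fold change was negative for 6 of the 8. It was positive for *Prtn3* (0.78, edgeR adjusted p = 0.288) and *Mpo* (0.31, adjusted p = 0.725). *Prtn3* was higher in every *MxCDX2* mouse than in every control mouse. Of 6 B-cell markers 4 fell, with sums between 194 and 489 and between 43.6 and 139. The 4 T-cell markers did not pass, with sums between 18.5 and 27.4 and between 10.7 and 17.3. Of the 4 megakaryocyte markers 2 fell, with sums between 199.9 and 2289, the latter in the wild-type control, and between 106 and 149. All 4 were lower in every *MxCDX2* mouse than in every control mouse, and 42.1% of all tested genes had no overlap. Beside these counts of markers, 9.91% of all tested genes rose past the test and 11.8% fell. No marker of the 6 lists was at 0 in any mouse. The part of these cell types in the values of the BCL2 family was not tested.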

How the data were processed

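The authors sequenced stranded mRNA libraries of whole bone marrow from 6 mice, and used STAR (version 2.5) for alignment to GRCm38 and HTSeq (version 0.6.1) for counting. They deposited raw counts per gene, 1 file per mouse. The strand setting of the counting is not given in the sources used here, so opposite-strand exon overlaps of the BCL2 family and pathway genes with printed values are named (those of marker genes are not). Between 12.2% and 17.1% of the reads in the files were assigned to no gene and were left out.

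Symbols were taken from GENCODE M21 (GRCm38), where 37693 of 39179 identifiers were found. The main test was that of edgeR 4.0.16 in R 4.3.3 (TMM, default filterByExpr, glmQLFit and glmQLFTest) over all genes, with Benjamini-Hochberg adjustment over the 15980 tested. The standard error and the 95% confidence interval of a log2 fold change were derived from its F statistic. A gene passed with an adjusted p-value below 0.05. Alternatives were DESeq2 1.42.0, limma 3.58.1 (voom), other scalings and filters, and leaving out each mouse. The exact permutation test used log2(normalized count + 1). Levels per length used all annotated exons of a gene. The code was tested on simulated data.

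All 10 listed genes are named. From each further list, the genes named were those past the test without overlap of the groups, at most the 4 with the largest absolute log2 fold change, and others are named for their role or after their values were seen. The values of 1 gene that the rule names are not reported here. The genes and lists were chosen with earlier results of these data known. The control group holds 1 mouse of each of 3 genotypes, so p-values measure the spread between these mice only.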

Additional observations from a re-analysis of the deposited data

How the results depend on the processing

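No paired analysis was possible because the labels name no pairs. They number the *MxCDX2* mice within their group and give the control mice a genotype and a running sample number. *Bcl2l1* and *Bid* passed the test in all 13 alternatives. Leaving out 1 mouse gave between 2 and 6 of the 10 genes past the test (4 with all mice), 1 to 2 past the thresholds of the methods (1), 5 to 16 further pathway genes (13), and over all genes between 1482 and 4361 (3471), between 703 and 2120 higher (1583) and between 779 and 2241 lower (1888). The lowest of these counts came without *MxCDX2* mouse 3 (2 of the 10 genes also without control 2, and 1 past the thresholds in every fit but one) and the highest without the wild-type control, where *Bid* had a log2 fold change of 1.01. The directions of *Bcl2* (-0.10 to 0.44), *Mcl1* (-0.10 to 0.16) and *Bcl2l11* (-0.36 to 0.081) changed with the mouse left out. An adjusted p below 0.01 left 2 of the 10 genes, 5 pathway genes and 1282 of all genes, 605 higher and 677 lower. Scaling by total counts moved the median log2 fold change of all genes to 0.12 and the share of higher genes among those past the test from 45.6% to 58.6%. Under it 2 of the 10 genes passed the thresholds of the methods, *Bak1* and *Bad* also passed the test, and the log2 ratio of the BH3-only sum was 0.76 in place of 0.64. At 38646101 to 49899650 reads per mouse no listed gene had fewer than 234 normalized counts in any mouse.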
